A study of Mus musculus with 12 samples.

Results

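Microglia and macrophage genes were followed in 12 mRNA libraries of cultures labelled as primary neurons of C57BL/6 mice. The set holds 39 genes, chosen by symbol from a list of genes that microglia and other macrophages are known for, out of 18607 genes listed in at least 1 of 2 tables. All 39 were listed in the table of the oncogene model and 38 in the table of the chemical model, where Siglech was not listed. In the oncogene model, 3 libraries over-expressed H-Ras(G12V), an oncogenic mutant of the GTPase H-Ras that stays switched on, and 3 carried mCherry, a fluorescent protein, with the genotype given as WT. The series design names an adeno-associated virus for the H-Ras construct. The chemical model has 3 libraries that were titled etoposide, a drug that traps topoisomerase II on DNA, and 3 titled DMSO, its solvent, all with the genotype WT. Every group was collected on day 10. The promoter of the virus, the brain region and the age of the donors are not given in the sources used here. Nor is it stated that replicates were separate cultures, so the p-values reflect the spread among these libraries alone, which may be technical.

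Microglia are the resident macrophages of the brain. They descend from yolk sac progenitors, depend on signals through the receptor CSF1R, and carry a programme set by the transcription factors PU.1 (Spi1) and IRF8. Resting microglia are known for Cx3cr1, P2ry12 and Tmem119. Phagocytic ones are known for Trem2 with its adaptor Tyrobp, for Cd68 and for lysosomal enzymes. Cultures of brain neurons usually keep some microglia, and several of these genes are also transcribed elsewhere, such as Coro1a in neurons.

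For the libraries titled etoposide and DMSO, the titles and library names contradict the treatment tag, which swaps the groups. Groups follow the titles and the column names, so directions for etoposide hold only if the titles are right. Some libraries stood apart from their group. By rank correlation across genes, etoposide library 3 was closer to the DMSO libraries (0.931 to 0.979) than to libraries 1 (0.811) and 2 (0.881) of its own group. The rank correlation of mCherry libraries 1 and 2 was 0.996, while library 3 reached 0.929 and 0.925 with them. Mouse Hras read 38.41, 51.63 and 33.46 FPKM in H-Ras(G12V) libraries, against 45.94, 42.98 and 44.2 FPKM in mCherry libraries, and was not higher (log2 fold change -0.13 ± 0.17 SE, limma adjusted p = 0.624). The species and sequence of the construct are not given, so this mouse gene may not capture it, and its level is no check on the labels. Depth was estimated roughly from the steps of low values, at 14600000 to 16000000 fragments per library in the oncogene model and 25200000 to 29500000 in the chemical model. On a transcript with an effective length of 1 kb, 1 FPKM (fragments per kilobase of transcript, scaled to library size) is then about 14.6 to 16.0 fragments in the oncogene model and 25.2 to 29.5 in the chemical model. The genes well under 1 FPKM rest on few fragments. Neuron markers summed to 1859 to 2251 FPKM in H-Ras(G12V) libraries and 2433 to 3235 in mCherry libraries, and to 1027 to 3566 in etoposide libraries and 2998 to 3078 in DMSO libraries.

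Promoter windows from RefSeq (build GRCm38.p6) were at hand for 26 of the 39 genes. The windows run from 250 bases before to 50 bases after the annotated start. The deposited files hold no coordinates and their build is named as mm9, so the windows serve for sequence only. The PU box, GAGGAA, is the classical binding sequence of PU.1. It was found on either strand in 15 of these 26 genes and in 31.3% of all 27025 genes with a window. The longer form GAGGAAGT, which contains the PU box, was found in 2 of the 26, Ctss and Cd53, and in 3.69% of all. Shown, chosen after values were seen, are the window of Cd68, the member that passed the test upward, and those of Ctss and Cd53. Capitals mark GAGGAA or its reverse complement TTCCTC, and each is written 5′ to 3′ on the strand of the gene. A match is a description of these letters and not a measured binding site.
Cd68 (chr11:69666121-69666420, minus strand): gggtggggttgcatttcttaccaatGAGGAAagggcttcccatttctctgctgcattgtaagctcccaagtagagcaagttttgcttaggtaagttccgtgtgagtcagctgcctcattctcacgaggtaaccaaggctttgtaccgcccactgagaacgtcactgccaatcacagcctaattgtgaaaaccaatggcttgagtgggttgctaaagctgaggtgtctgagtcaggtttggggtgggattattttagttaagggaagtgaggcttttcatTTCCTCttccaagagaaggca
Ctss (chr3:95526536-95526835, plus strand): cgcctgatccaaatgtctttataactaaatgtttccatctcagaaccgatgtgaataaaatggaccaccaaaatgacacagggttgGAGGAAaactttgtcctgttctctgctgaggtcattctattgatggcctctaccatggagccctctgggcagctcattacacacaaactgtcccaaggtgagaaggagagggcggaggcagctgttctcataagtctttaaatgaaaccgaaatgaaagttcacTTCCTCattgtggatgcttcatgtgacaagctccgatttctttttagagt
Cd53 (chr3:106790100-106790399, minus strand): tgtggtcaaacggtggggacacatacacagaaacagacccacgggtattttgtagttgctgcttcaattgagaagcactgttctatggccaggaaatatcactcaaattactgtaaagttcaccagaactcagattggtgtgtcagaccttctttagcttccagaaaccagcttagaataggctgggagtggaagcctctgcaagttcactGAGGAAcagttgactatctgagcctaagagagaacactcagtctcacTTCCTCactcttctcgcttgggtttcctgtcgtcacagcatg
Each of these 3 windows held 1 PU box on the strand of the gene and 1 on the other. A stretch shortly after the annotated start occurred in 0 transcripts of Cd68 in the GENCODE M21 annotation, against 2 of Ctss and 1 of Cd53. The start used for Cd68, and so the place of its matches, is thus uncertain.

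Most of the genes were at low levels in every group. Of the 39, 6 to 20 reached 1 FPKM in a library of the oncogene model, and of the 38, 7 to 24 did so in a library of the chemical model. The median level over the genes was 0.57, 0.88 and 0.34 FPKM in the H-Ras(G12V) libraries and 1.07, 0.91 and 0.07 FPKM in the mCherry libraries. It was 1.28, 0.465 and 0.51 FPKM in the etoposide libraries and 0.305, 1.52 and 0.235 FPKM in the DMSO libraries. In each comparison the groups overlapped by this measure. Fewer cells of a type and less RNA per cell cannot be told apart in such bulk libraries, here or in any result that follows. Tests were run on genes that averaged 1 FPKM or more in a table, 16 in the oncogene model and 17 in the chemical model. The others averaged at most 0.92 FPKM.

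**Figure D1:**
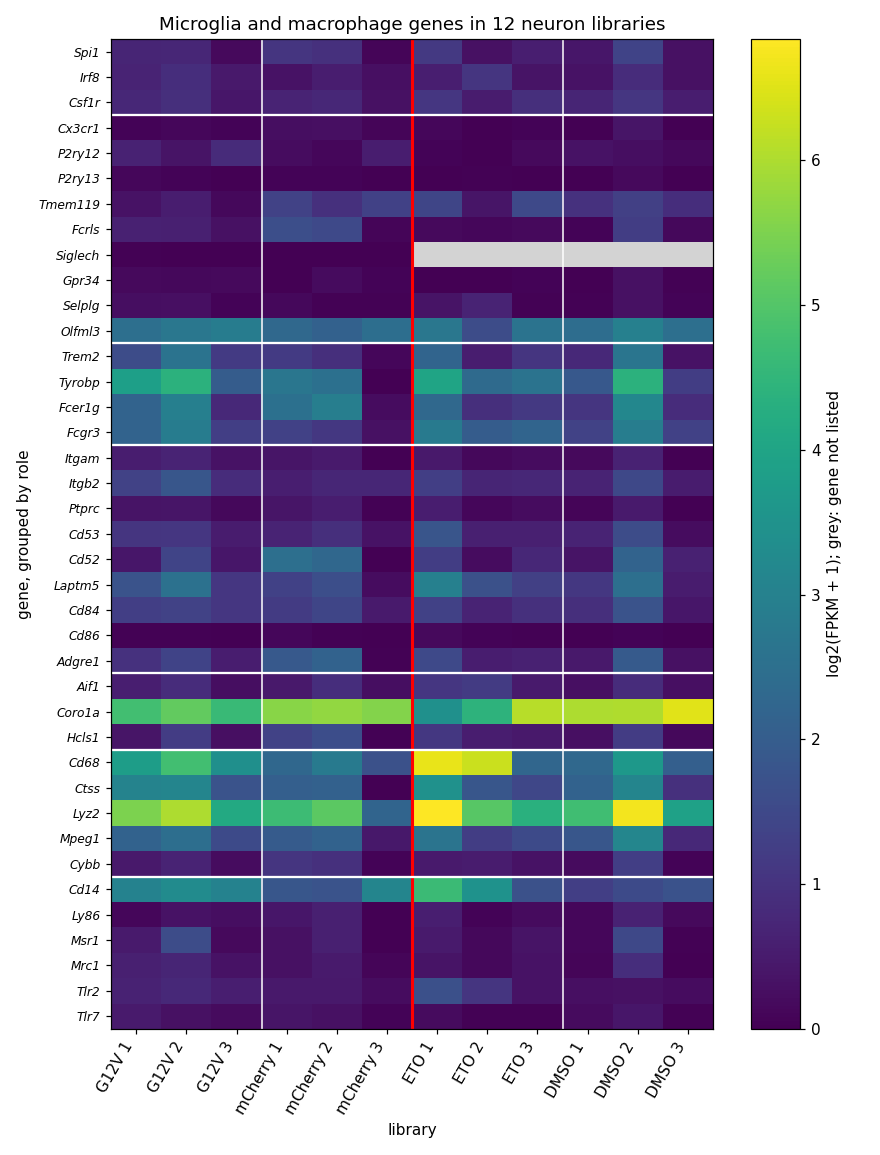
Level of each of the 39 genes (rows, grouped by role) in each of the 12 libraries (columns), as log2(FPKM + 1), with G12V for H-Ras(G12V) and ETO for etoposide. The red line parts the 2 tables, white vertical lines part the groups of a table, and grey marks a gene that is not listed. Coro1a, Lyz2, Cd68, Tyrobp and Cd14 stand out by level, and the column of mCherry 3 is dark for most rows.

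The genes of microglial identity were near the floor of the tables. Spi1, which encodes PU.1, had 0.64, 0.67 and 0.13 FPKM in H-Ras(G12V) libraries, against 1.07, 0.94 and 0.06 FPKM in mCherry libraries. It had 1.21, 0.23 and 0.49 FPKM in etoposide libraries, against 0.33, 1.59 and 0.24 FPKM in DMSO libraries. The groups overlapped in both models. Csf1r, the receptor for CSF1 and IL-34, had 0.68, 0.88 and 0.34 FPKM in H-Ras(G12V) libraries, against 0.59, 0.70 and 0.23 FPKM in mCherry libraries. Csf1r in the chemical model had 1.10, 0.43 and 0.88 FPKM in etoposide libraries, against 0.64, 1.13 and 0.46 FPKM in DMSO libraries. Its groups also overlapped in both. Irf8 lay between 0.21 and 1.08 FPKM over the 12 libraries.

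Among receptors of resting microglia, Cx3cr1, the receptor for neuronal fractalkine, stayed at or below 0.31 FPKM in all 12 libraries. P2ry13 stayed at or below 0.12 FPKM, the lysophospholipid receptor gene Gpr34 at or below 0.23 and the selectin ligand gene Selplg at or below 0.61. Siglech, a sialic acid-binding lectin, was listed at 0 in 5 of the 6 libraries of its table. P2ry12, the ADP receptor by which microglia sense injury, had 0.57, 0.28 and 0.78 FPKM in H-Ras(G12V) libraries, against 0.18, 0.09 and 0.46 FPKM in mCherry libraries. P2ry12 in the chemical model had 0.05, 0.00 and 0.13 FPKM in etoposide libraries, against 0.26, 0.20 and 0.10 FPKM in DMSO libraries. The groups overlapped in both models. Fcrls, an Fc receptor-like gene of mouse microglia, had 0.55, 0.53 and 0.23 FPKM in H-Ras(G12V) libraries, against 2.11, 1.87 and 0.07 FPKM in mCherry libraries. mCherry library 3 lay below all 3 H-Ras(G12V) libraries, and mCherry libraries 1 and 2 above them.

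Tmem119 was lower in every H-Ras(G12V) library. This microglial membrane protein, known also from osteoblasts, had 0.27, 0.46 and 0.10 FPKM in H-Ras(G12V) libraries, against 1.54, 0.92 and 1.51 FPKM in mCherry libraries. The groups did not overlap. Its average of 0.8 FPKM kept it out of the main test. With no filter on low values it passed downward, with a log2 fold change of -0.86 ± 0.16 (SE) on the log2(FPKM + 1) scale and an adjusted p of 0.0350. Of 10 fibroblast and mural markers, 9 passed downward in the oncogene model, where 6.67% of all genes did. These markers summed to 37.9 to 41.5 FPKM in H-Ras(G12V) libraries and 189 to 278 FPKM in mCherry libraries. Their part in the Tmem119 values was not tested. Tmem119 in the chemical model had 1.71, 0.31 and 1.84 FPKM in etoposide libraries, against 0.95, 1.45 and 0.85 FPKM in DMSO libraries. The log2 fold change there was 0.06 ± 0.34 (SE, adjusted p = 0.933). Olfml3, a secreted glycoprotein gene, read 3.34 to 6.29 FPKM in the oncogene model and 2.02 to 6.93 FPKM in the chemical model. Its H-Ras(G12V) libraries lay above its mCherry libraries, without passing (log2 fold change 0.38 ± 0.16, adjusted p = 0.138).

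The genes of TREM2 and Fc receptor signalling were among the better measured members. Tyrobp, the adaptor of TREM2, had 13.60, 20 and 2.97 FPKM in H-Ras(G12V) libraries, against 5.47, 4.76 and 0.00 FPKM in mCherry libraries. H-Ras(G12V) library 3 lay below mCherry libraries 1 and 2. The difference did not pass in limma (log2 fold change 1.68 ± 0.86 SE, adjusted p = 0.217). Tyrobp in the chemical model had 15.03, 4.14 and 5.05 FPKM in etoposide libraries, against 2.69, 20.03 and 1.36 FPKM in DMSO libraries. DMSO library 2 was the highest of the 6, so the groups overlapped (log2 fold change 0.48 ± 0.77, adjusted p = 0.750). Trem2, the lipid-sensing receptor, had 2.03, 5.12 and 1.22 FPKM in H-Ras(G12V) libraries, against 1.24, 0.91 and 0.08 FPKM in mCherry libraries (log2 fold change 1.05 ± 0.43, adjusted p = 0.130). It had 3.57, 0.46 and 1.07 FPKM in etoposide libraries, against 0.72, 5.27 and 0.27 FPKM in DMSO libraries (log2 fold change 0.00 ± 0.62, adjusted p = 0.997). The same libraries were high and low for Trem2 as for Tyrobp, namely H-Ras(G12V) 2 and DMSO 2 at the top and mCherry 3 and DMSO 3 at the bottom of their groups. Fcgr3, a low-affinity receptor for IgG, averaged 3.73 ± 2.44 FPKM in H-Ras(G12V) libraries and 0.967 ± 0.664 FPKM in mCherry libraries (SD, n = 3 each), and did not pass in limma (adjusted p = 0.106). Fcer1g, the signalling chain shared by Fc receptors, averaged 3.67 ± 3.02 FPKM in H-Ras(G12V) libraries and 3.84 ± 3.29 FPKM in mCherry libraries.

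Leukocyte membrane proteins gave no call in the main fit of either model. Of 9 such genes 5 were tested in each. Of all genes tested, 17.0% passed in the oncogene model and 0.453% in the chemical model. Ptprc, which encodes CD45, had 0.28, 0.32 and 0.11 FPKM in H-Ras(G12V) libraries, against 0.31, 0.45 and 0.02 FPKM in mCherry libraries. It had 0.47, 0.09 and 0.16 FPKM in etoposide libraries, against 0.07, 0.40 and 0.01 FPKM in DMSO libraries. The groups overlapped in both models. Itgam, the alpha chain of complement receptor CR3, had 0.47, 0.60 and 0.27 FPKM in H-Ras(G12V) libraries, against 0.32, 0.42 and 0.00 FPKM in mCherry libraries, and at most 0.58 FPKM in the chemical model. Its partner Itgb2 had 1.54, 2.54 and 0.81 FPKM in H-Ras(G12V) libraries, against 0.50, 0.67 and 0.65 FPKM in mCherry libraries. These Itgb2 groups did not overlap, and the log2 fold change of 0.66 ± 0.25 did not pass (adjusted p = 0.114). Cd52, a small surface glycoprotein, had 0.34, 1.63 and 0.34 FPKM in H-Ras(G12V) libraries, against 4.62, 3.89 and 0.00 FPKM in mCherry libraries. Adgre1, which encodes F4/80, had 0.96, 1.60 and 0.45 FPKM in H-Ras(G12V) libraries, against 2.75, 3.47 and 0.02 FPKM in mCherry libraries. For both, mCherry libraries 1 and 2 were the highest of the table and mCherry library 3 the lowest. Laptm5, a lysosomal membrane protein of blood cells, ranged from 0.17 to 4.88 FPKM in the oncogene model and from 0.44 to 6.95 in the chemical model. The tetraspanin gene Cd53 stayed at or below 2.51 FPKM, Cd84 at or below 2.34 and the costimulatory gene Cd86 at or below 0.13 in the 12 libraries.

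Aif1, which encodes the microglial marker IBA1, had 0.50, 0.84 and 0.20 FPKM in H-Ras(G12V) libraries, against 0.38, 0.87 and 0.20 FPKM in mCherry libraries. It had 1.13, 1.26 and 0.42 FPKM in etoposide libraries, against 0.22, 0.82 and 0.22 FPKM in DMSO libraries. The groups overlapped in both models. Hcls1, a cortactin relative of blood cells, stayed at or below 2.05 FPKM in the 12 libraries.

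Coro1a, an actin-binding protein of leukocytes that neurons also make, was far above the other cytoskeletal genes. It had 26.06, 35.91 and 23.91 FPKM in H-Ras(G12V) libraries, against 48.49, 52.49 and 46.83 FPKM in mCherry libraries. All H-Ras(G12V) libraries lay below all mCherry libraries, and Coro1a fell by 0.78 ± 0.17 (SE) on the log2 scale (adjusted p = 0.0238). Of the 12 neuron markers, 2 also passed downward and 1 upward, beside 6.67% and 10.3% of all genes. The part of neuron markers in the Coro1a result was not tested. Coro1a no longer passed when H-Ras(G12V) library 1 (adjusted p = 0.0975) or 3 (0.0916) was left out, without mCherry library 1 or 2 (0.0783 and 0.0892), with these 2 libraries averaged (0.0822) and in a single fit of the 12 libraries (0.418). In those fits 3.9% to 5.44% of all genes passed, against 17.0% in the main fit. Coro1a in the chemical model had 9.70, 20.47 and 67.62 FPKM in etoposide libraries, against 62.79, 64.28 and 91.23 FPKM in DMSO libraries. Etoposide libraries 1 and 2 lay far below the rest and etoposide library 3 among the DMSO libraries (log2 fold change -1.54 ± 0.58, adjusted p = 0.355). In the same order the neuron markers summed to 1027, 2143 and 3566 FPKM in etoposide libraries.

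Cd68, a glycoprotein of phagocyte lysosomes, was the member that passed upward. It had 13.10, 26.37 and 9.67 FPKM in H-Ras(G12V) libraries, against 3.87, 5.94 and 2.24 FPKM in mCherry libraries. All H-Ras(G12V) libraries lay above all mCherry libraries, and the ratio of the group means was 4.08. The log2 fold change was 1.74 ± 0.40 (SE, adjusted p = 0.0298). Cd68 no longer passed when H-Ras(G12V) library 1 (adjusted p = 0.0869) or 2 (0.0740) was left out, without mCherry library 1 (0.0794), with mCherry libraries 1 and 2 averaged (0.0597), with no filter (0.0746) and in a single fit of the 12 libraries (0.331). In those fits 3.9% to 10.2% of all genes passed, against 17.0% in the main fit. Cd68 in the chemical model had 97.43, 77.45 and 3.78 FPKM in etoposide libraries, against 3.92, 11.48 and 3.22 FPKM in DMSO libraries. Etoposide libraries 1 and 2 were far above the rest, and etoposide library 3 lay within the DMSO range. With the 3 libraries together Cd68 did not pass (log2 fold change 2.38 ± 1.02, adjusted p = 0.357).

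The other phagosome and lysosome genes had overlapping groups in both models. Ctss, a cysteine protease of antigen-presenting cells, had 7.40, 7.59 and 2.36 FPKM in H-Ras(G12V) libraries, against 3.23, 3.37 and 0.00 FPKM in mCherry libraries (log2 fold change 1.24 ± 0.64, adjusted p = 0.217). It had 9.96, 2.58 and 1.75 FPKM in etoposide libraries, against 3.47, 7.59 and 0.92 FPKM in DMSO libraries (log2 fold change 0.18 ± 0.63, adjusted p = 0.891). Etoposide library 1 and DMSO library 2 were high in the chemical model, and the groups overlapped in both models. Lyz2, a lysozyme with a near-identical copy in Lyz1, so that its level is uncertain, had 44.06, 63.34 and 16.84 FPKM in H-Ras(G12V) libraries, against 24.86, 33.82 and 3.64 FPKM in mCherry libraries. It had 113.48, 32.72 and 19.34 FPKM in etoposide libraries, against 25.72, 104.67 and 14.09 FPKM in DMSO libraries. Here too the groups overlapped. Mpeg1, a pore-forming protein of macrophages, ranged from 0.35 to 4.58 FPKM in the oncogene model and from 0.72 to 7.88 in the chemical model. Cybb, the catalytic subunit of the phagocyte NADPH oxidase, stayed at or below 1.43 FPKM.

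Among pattern recognition receptors, Cd14, the co-receptor for bacterial lipopolysaccharide, was the best measured. It had 7.12, 8.83 and 7.25 FPKM in H-Ras(G12V) libraries, against 2.54, 2.38 and 7.65 FPKM in mCherry libraries. mCherry library 3, the lowest for most members, was here level with the H-Ras(G12V) libraries (log2 fold change 0.89 ± 0.36, adjusted p = 0.128). Cd14 in the chemical model had 24.37, 10.31 and 2.27 FPKM in etoposide libraries, against 1.40, 1.90 and 2.29 FPKM in DMSO libraries. As for Cd68, etoposide libraries 1 and 2 were high and library 3 was level with DMSO (log2 fold change 1.79 ± 0.63, adjusted p = 0.353). Tlr2, a receptor for bacterial lipoproteins, had 0.57, 0.73 and 0.49 FPKM in H-Ras(G12V) libraries, against 0.39, 0.37 and 0.16 FPKM in mCherry libraries. It had 2.19, 1.06 and 0.25 FPKM in etoposide libraries, against 0.21, 0.23 and 0.17 FPKM in DMSO libraries. The groups of Tlr2 did not overlap in either model, and its averages were too low for the test. Tlr7, a sensor of single-stranded RNA, stayed at or below 0.40 FPKM and Ly86 at or below 0.56. The scavenger receptor gene Msr1 stayed at or below 2.03 FPKM and the mannose receptor gene Mrc1 at or below 0.86.

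**Figure D2:**
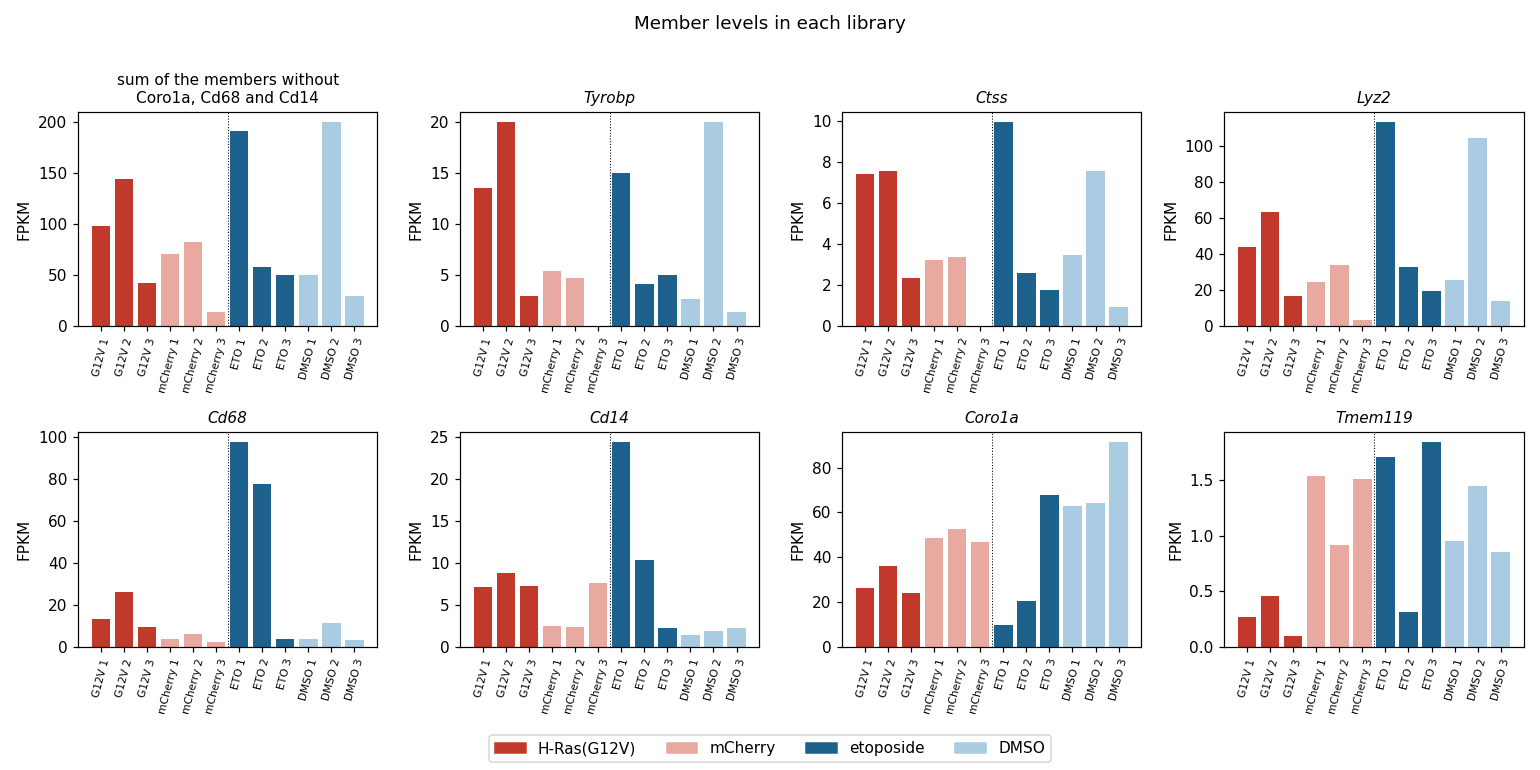
FPKM in each of the 12 libraries (bars, starting at 0) for the sum of the members other than Coro1a, Cd68 and Cd14 and for 7 single genes. Tyrobp, Ctss and Lyz2 are parts of the sum, and Lyz2 is its largest part in most libraries. They and the sum are high in DMSO 2 and ETO 1, with mCherry 3 at the bottom. Cd68 and Cd14 are high in ETO 1 and ETO 2, and Coro1a is low there.

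In counts, 2 of the 16 members tested in the oncogene model passed, Cd68 higher and Coro1a lower, where 17.0% of all 12724 genes tested passed (10.3% higher and 6.67% lower). At an unadjusted p under 0.05 there were 7, where this held for 34.4% of all genes. The groups did not overlap for 4 of the 16, 3 higher and 1 lower, where this held for 40.3% of all genes tested (23.7% higher and 16.6% lower). The share of members was below that of all genes by the adjusted test and by overlap, and above it at the unadjusted p. The median log2 fold change of the 16 was 0.69, against 0.05 over all genes tested. Of the 16, 13 were positive, where this held for 55.5% of all genes tested. With no filter on low values the median over all 39 members was 0.12, against 0.02 over all genes. Without mCherry library 3 the median over the 18 members then tested was 0.31 and 8 passed, where 44.9% of all genes passed (25.4% higher and 19.5% lower). Then Cd68, Cd14 and Olfml3 passed upward and Coro1a, Cd52, Adgre1, Fcrls and Hcls1 downward. That fit keeps as controls only mCherry libraries 1 and 2, whose spread is small. Without H-Ras(G12V) library 1 or mCherry library 1 no member passed, and without H-Ras(G12V) library 2 or 3 or mCherry library 2 there was 1. Of all genes, 3.9% passed without H-Ras(G12V) library 1 and 4.96% without mCherry library 1. The share was 8.9% and 5.44% without H-Ras(G12V) library 2 and 3, and 4.92% without mCherry library 2.

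In the chemical model none of the 17 members tested passed in limma, where 0.453% of all 12371 genes tested passed. At an unadjusted p under 0.05 there were 3, Cd14, Coro1a and Cd68, where this held for 13.9% of all genes. None of the 17 had groups that did not overlap, against 15.8% of all genes (7.64% higher and 8.17% lower). The median log2 fold change of the 17 was 0.06, against 0.09 over all genes. Without etoposide library 3 those 3 genes passed, where 31.8% of all genes did (18.4% higher and 13.4% lower). The log2 fold changes were then 3.78 for Cd68 (adjusted p = 0.000386), 2.58 for Cd14 (adjusted p = 0.00101) and -2.26 for Coro1a (adjusted p = 0.00126). The median of the 17 was 0.14 in that fit, and without any other single library no member passed.

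**Figure D3:**
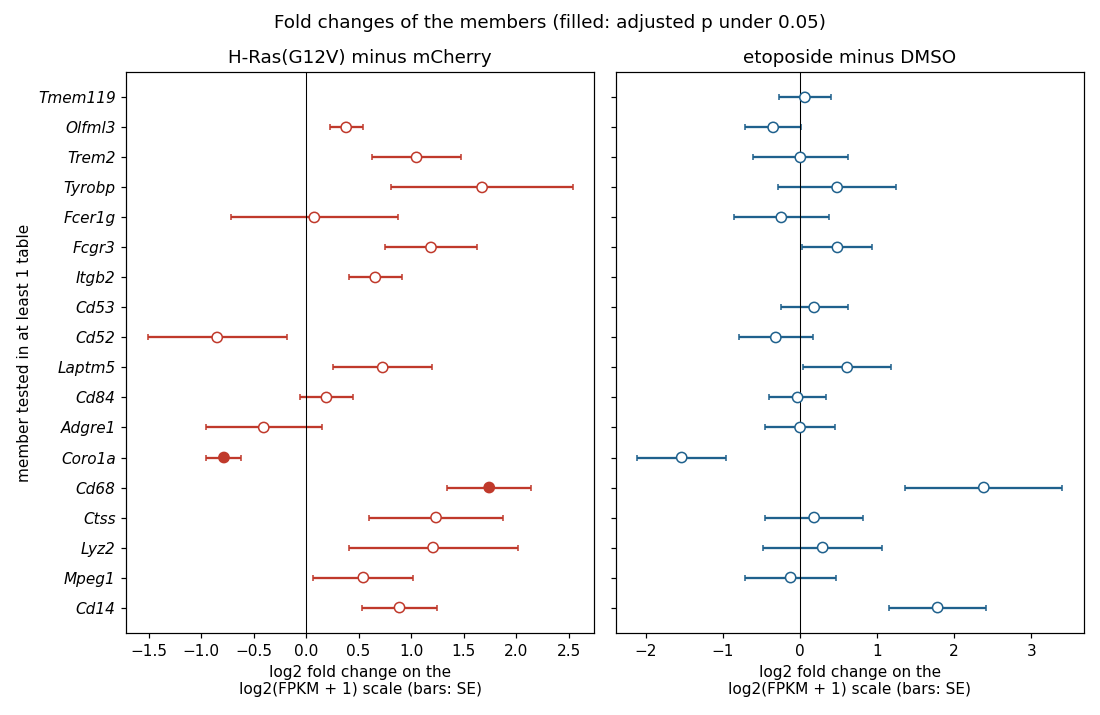
Log2 fold change (points) with its standard error (bars) on the log2(FPKM + 1) scale for the 18 members tested in at least 1 model, on the left for H-Ras(G12V) minus mCherry and on the right for etoposide minus DMSO. Filled points have an adjusted p under 0.05, which holds for Cd68 and Coro1a on the left and for none on the right.

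The models were set against each other through the oncogene effect minus the etoposide effect over the 12 libraries. None of the 16 members tested passed in limma, where 3.76% of all 12646 genes tested passed. None was at an unadjusted p under 0.05, where this held for 18.3% of all genes. For Cd68 the difference was -0.64 ± 1.28 (SE, adjusted p = 0.822) and for Tyrobp 1.19 ± 1.29 (adjusted p = 0.643). Without etoposide library 3, where 22.6% of all genes passed, the difference passed for 3 members. It was -2.04 for Cd68 (adjusted p = 0.0464), -1.69 for Cd14 (adjusted p = 0.0469) and 1.48 for Coro1a (adjusted p = 0.0194). Without etoposide library 2 it passed for Tmem119 (-1.29, adjusted p = 0.0452). Over all 12 libraries Tmem119 averaged too little to be tested for the difference. The library left out held its lowest etoposide value, 0.31 FPKM. The share of all genes that passed in that fit is not given here, so this call has no background beside it.

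Many members were lowest, or highest, in the same library. mCherry library 3 held the lowest value of its table for 12 of the 16 members tested, against 25.9% of all genes tested, and 9 of the 39 listed genes were at 0 in it. H-Ras(G12V) library 2 held the highest value for 11 of the 16, against 20.6% of all genes tested. In the chemical model DMSO library 3 held the lowest value for 12 of the 17, against 26.2% of all genes tested. DMSO library 2 held the highest value for 9 of the 17, against 7.98% of all genes tested, and etoposide library 1 for 6 of the 17, against 24.8%. The members share these libraries, so the counts describe the libraries and carry no test.

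**Figure D4:**
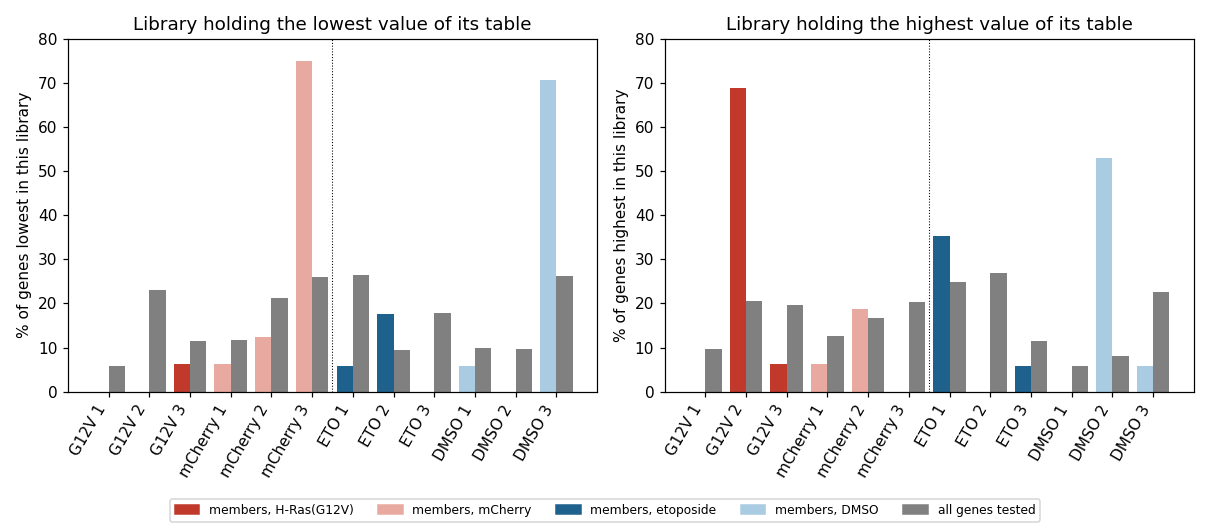
Share of genes whose lowest (left) or highest (right) value within their table falls in each library, in percent, for the members tested (coloured by group) and for all genes tested (grey). The tall bars are mCherry 3 and DMSO 3 on the left and G12V 2 and DMSO 2 on the right.

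The same order appeared in the sum of the members without Coro1a, Cd68 and Cd14, genes set aside after their values were seen. As the sum is made of these members, its order is no further support. Lyz2, whose level is uncertain, was the largest part of this sum in most libraries. This sum was 97.65, 144.17 and 42.27 FPKM in H-Ras(G12V) libraries and 70.64, 82.28 and 13.78 FPKM in mCherry libraries. It was 190.49, 58.28 and 50.06 FPKM in etoposide libraries and 49.97, 199.7 and 29.29 FPKM in DMSO libraries. The groups overlapped in both models. With all listed members the sum averaged 147 ± 66.2 FPKM in H-Ras(G12V) libraries and 113 ± 37.9 in mCherry libraries, and 204 ± 104 FPKM in etoposide libraries and 174 ± 89.8 in DMSO libraries (SD, n = 3 each). C1qc, a subunit of the complement starter C1q made by microglia, read 5.75, 10.87 and 1.11 FPKM in H-Ras(G12V) libraries, against 3.46, 5.01 and 0.00 FPKM in mCherry libraries. It read 9.50, 1.76 and 3.15 FPKM in etoposide libraries, against 1.81, 14.30 and 0.61 FPKM in DMSO libraries. The libraries high and low in C1qc were those high and low in Tyrobp.

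Markers of other cell types moved with some of these libraries. Fibroblast and mural markers summed to 452, 92.3 and 286 FPKM in etoposide libraries and to 172, 421 and 139 FPKM in DMSO libraries. Etoposide library 1 and DMSO library 2, high in the members, were also the highest here, and DMSO library 3 was the lowest of the DMSO libraries. In the oncogene model these markers were low in all 3 H-Ras(G12V) libraries, whatever the level of the members. Astrocyte markers summed to 3749, 3350 and 2603 FPKM in H-Ras(G12V) libraries and to 1205, 1212 and 3163 FPKM in mCherry libraries, and 3 of 10 passed upward. Oligodendrocyte lineage markers summed to 1060, 922 and 1120 FPKM in H-Ras(G12V) libraries and to 295, 229 and 763 FPKM in mCherry libraries, and 6 of the 9 tested passed upward (median log2 fold change 1.58). mCherry library 3, the lowest for most members, was thus the highest mCherry library for both glial lists. Of all genes tested in the oncogene model, 10.3% passed upward. Under etoposide the oligodendrocyte lineage markers summed to 118, 77.9 and 220 FPKM in etoposide libraries and to 692, 539 and 908 FPKM in DMSO libraries. Of the 8 tested, 3 passed downward and 7 had etoposide libraries all below DMSO libraries, where this held for 0.453% and 8.17% of all genes. Astrocyte markers summed to 990, 631 and 901 FPKM in etoposide libraries and to 1415, 1051 and 1628 FPKM in DMSO libraries. None of the 10 passed, and 6 were at an unadjusted p under 0.05, where this held for 13.9% of all genes. These were lower under etoposide except Gja1, which was higher (log2 fold change 1.52). Gja1 had 378.26, 286.52 and 60.83 FPKM in etoposide libraries, against 76.82, 59.03 and 59.82 FPKM in DMSO libraries. Lymphocyte genes summed to at most 0.87 FPKM in any library, with 2 to 7 of the listed genes at 0. Monocyte and neutrophil genes summed to at most 0.98 FPKM in the oncogene model. In the chemical model they summed to 36.3, 24.6 and 0.42 FPKM in etoposide libraries and to at most 0.48 FPKM in DMSO libraries. S100a8 alone made 35.59, 24.12 and 0.00 FPKM of the sums in etoposide libraries, and no other gene of that list exceeded 0.65 FPKM in any library. Ccr2, the receptor of blood monocytes, was at or below 0.01 FPKM in all 12 libraries. The part of other cell types in the members' values was not tested.

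Beyond the members, 10 genes for ligands of microglial receptors were tested in each model. In the oncogene model 1 passed, Csf1, a ligand of CSF1R, at 17.3 ± 1.81 FPKM in H-Ras(G12V) libraries and 11.97 ± 1.32 FPKM in mCherry libraries (SD, n = 3 each; log2 fold change 0.50 ± 0.14, limma adjusted p = 0.0483). This call held in 1 of the 6 fits that leave out a library, without mCherry library 3, an alternative that for these further lists was chosen after seeing the data. Without that library 5 of the 10 passed upward and 1 downward, where 25.4% of all genes passed upward and 19.5% downward. In the chemical model none of the 10 passed, and 3 did so at an unadjusted p under 0.05, where this held for 13.9% of all genes. These 3 went in both directions, with Pros1 and Tgfb1 higher and Cx3cl1 lower. Csf1 in the chemical model had 76.98, 21.20 and 7.99 FPKM in etoposide libraries, against 7.21, 7.48 and 9.69 FPKM in DMSO libraries.

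Of 43 other genes known from microglia, 19 were tested in the oncogene model, and 4 passed upward and none downward, where 10.3% of all genes passed upward and 6.67% downward. Among them were Syk, the kinase downstream of TYROBP and Fc receptors, Plcg2, a phospholipase of the same route, and Entpd1, which degrades extracellular ATP. Syk had 2.63, 3.01 and 2.43 FPKM in H-Ras(G12V) libraries, against 0.67, 0.64 and 0.49 FPKM in mCherry libraries. The Syk groups lay well apart (log2 fold change 1.20 ± 0.14, adjusted p = 0.00430), and Syk passed in each of the 6 fits that leave out a library. Plcg2 had 3.76, 3.40 and 2.53 FPKM in H-Ras(G12V) libraries, against 1.16, 0.86 and 1.09 FPKM in mCherry libraries (log2 fold change 1.05 ± 0.16, adjusted p = 0.0103). It passed in 5 of those 6 fits and not without H-Ras(G12V) library 1 (adjusted p = 0.0553). Entpd1 passed in 1 of them, without mCherry library 3. Without that library 8 of the 21 genes then tested passed upward and 2 downward, where 44.9% of all genes passed in either direction. Without any other single library 1 to 3 passed, where 3.9% to 8.9% of all genes did. For etoposide against DMSO none of the 16 genes tested passed, and 4 did so at an unadjusted p under 0.05, beside 13.9% of all genes. Of these 4, Tgfbr1 and Rgs10 were higher and Lyn and Sirpa lower. Of the 43 genes, 19 were tested in the difference between the models. Entpd1 alone passed there (1.05 ± 0.25, adjusted p = 0.0340), where 3.76% of all genes did.

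Of 22 genes known from disease-associated microglia, 17 were tested in the oncogene model, and 6, including Csf1 from the ligand list, passed upward and none downward, again beside 10.3% and 6.67% of all genes. Gpnmb, a lysosomal glycoprotein, had 49.07, 68.95 and 39.06 FPKM in H-Ras(G12V) libraries, against 7.30, 8.71 and 15.04 FPKM in mCherry libraries (log2 fold change 2.25 ± 0.30, adjusted p = 0.00590). It passed without each library in turn. The tetraspanin gene Cd9 averaged 388 ± 23.3 FPKM in H-Ras(G12V) libraries and 149.9 ± 53.5 FPKM in mCherry libraries, and the cathepsin gene Ctsz 51.9 ± 8.57 and 23.7 ± 5.03 FPKM in the same order (SD, n = 3 each; limma adjusted p = 0.0114 and 0.0120). Ctsd, another cathepsin, also passed. Of the 6 fits that leave out a library, Ctsz passed in 5, Cd9 in 4 and Ctsd in 2 (adjusted p up to 0.0504, 0.0562 and 0.0965). Many of these lysosomal genes are also made by other brain cells. Without any single library other than mCherry 3 the count upward was 2 to 4, where 3.9% to 8.9% of all genes passed. Without mCherry 3 it was 10, with 3 downward, where 44.9% of all genes passed. For etoposide against DMSO none of the 18 tested passed, and 3 did so at an unadjusted p under 0.05, beside 13.9% of all genes. Of these 3, Spp1 and Ch25h were higher and Fabp5 lower. Without etoposide library 3, 3 of the 10 ligand genes passed upward and 2 downward, 4 of 17 other microglia genes upward and 2 downward, and 6 of 18 disease-associated genes upward and 1 downward. In that fit 18.4% of all genes passed upward and 13.4% downward. Of 12 genes of border macrophages 2 were tested in each model and none passed. Over the 12 libraries the highest value of a gene on that list ran from 0.05 FPKM for F13a1 and Clec10a to 3.13 FPKM for Ms4a7 and 19.68 FPKM for Dab2.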

How the data were processed

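Per the labels' protocols, mRNA was enriched with oligo-dT beads. The authors deposited 1 table per model with FPKM per gene and library, per the file headers. HISAT, Bowtie2, RSEM and mm9 are named in the submitters' processing notes. Their roles and any further filter or scaling are not given in the sources used here. Read counts were not used here, and tables were treated as normalised separately.

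Values were analysed as log2(FPKM + 1) with limma 3.58.1 in R 4.3.3 (lmFit, eBayes with trend) for genes that averaged 1 FPKM or more in the 6 libraries, or in all 12 for the difference of effects. Two-sided p-values were adjusted by Benjamini-Hochberg over all genes tested, with a threshold of 0.05. The fits were checked on simulated data with independent noise and an equal spread for all genes. That check does not cover unequal spreads or libraries that stand apart from their group, as some do here. Fold changes understate those of low genes. The members and lists were chosen with earlier results of these data known. Named genes were all members and, per other list, up to 4 passing genes with the largest change in a direction. Library values and directions of further genes were added after they were seen. 1 passing gene of another list is not reported here. Depth was estimated from steps of low FPKM in genes of 1 transcript in GENCODE M21. Alternatives were other pseudocounts, filters and scalings, a replicate block, 1 library left out, 2 close libraries averaged and a single fit of 12 libraries.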

Additional observations from a re-analysis of the deposited data

How the results depend on the processing

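The count of members passing in the oncogene model was 2 under each pseudocount, filter and scaling tried, where 10.2% to 17.2% of all genes passed. With no filter the pair was Tmem119 and Coro1a in place of Cd68 and Coro1a. The count was 0 with mCherry libraries 1 and 2 averaged (5.02% of all genes passed) and 0 in the single fit of 12 libraries (3.92%). It was 0 to 8 without 1 library, with 8 without mCherry library 3 (44.9%). Without any other single library 3.9% to 8.9% of all genes passed. In the chemical model the member count was 0 under all alternatives other than leaving out a library (0 to 3, with 3 without etoposide library 3, where 31.8% of all genes passed). For the difference of effects it was 0 to 3 without 1 library and 0 otherwise. A common sum moved the median log2 fold change over all genes of the oncogene model to -0.07, against 0.05 as deposited, and changed no member's call. The members' median lay between 0.31 and 0.86 without 1 library and between 0.12 and 1.21 otherwise in the oncogene model, and between -0.42 and 0.70 and between 0.00 and 0.48 in the chemical model. Summed levels moved by less than the spread between libraries under both scalings.

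The replicate numbers were not shown to pair libraries. Deviations of same-numbered libraries from their group means correlated at -0.04, 0.03 and 0.12 in the oncogene model and at -0.27, -0.17 and -0.15 in the chemical model, and H-Ras(G12V) library 3 alone of the 6 treated libraries correlated best with its own number. With a replicate block 7 of the 16 members passed in the oncogene model, 6 higher and 1 lower, where 13.2% of all genes passed. The block added Tyrobp, Ctss, Lyz2, Fcgr3 and Trem2. With it 0 members passed in the chemical model, where 0.097% of all genes did, and 0 for the difference.

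In the chemical model some uncalled members near 0 changed sign. Tmem119 was at -0.0343 with a pseudocount of 0.1, and Trem2 at -0.0414 with a pseudocount of 5, -0.0871 with a common sum and -0.035 with median-of-ratios scaling. Without 1 library Tmem119 ranged from -0.13 to 0.42, Trem2 from -0.46 to 0.70, Tyrobp from -0.15 to 1.43 and Ctss from -0.42 to 0.70, and the Cd68 difference between the models from -2.04 to 0.14. The cause was not tested. Depth limits the genes under 1 FPKM, and intervals for counting error cannot be given from FPKM.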

Other observations

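Several genes outside the members, named after their values were seen, shared the pattern of Cd68 and Cd14, high in etoposide libraries 1 and 2 and far lower in library 3. Of all genes tested, 24.8% were highest in etoposide library 1 and 27% in library 2. Without etoposide library 3, 18.4% of all genes passed upward, so such a pattern is not particular to the genes named here. S100a8, a calcium-binding protein known from neutrophils, had 35.59, 24.12 and 0.00 FPKM in etoposide libraries, against 0.25, 0.25 and 0.00 FPKM in DMSO libraries. Its usual partner S100a9 stayed at or below 0.15 FPKM in the 12 libraries. Runx1, a transcription factor of blood cells, had 3.92, 1.44 and 0.23 FPKM in etoposide libraries, against 0.03, 0.14 and 0.05 FPKM in DMSO libraries. Tgfb1, a growth factor that microglia need, had 73.23, 11.55 and 1.84 FPKM in etoposide libraries, against 0.59, 1.77 and 0.93 FPKM in DMSO libraries. Spp1, which encodes osteopontin, had 1656.9, 433.81 and 61.41 FPKM in etoposide libraries, against 25.19, 93.06 and 9.84 FPKM in DMSO libraries. With all 3 etoposide libraries none of those tested passed, and Runx1 averaged too little for the test.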
